A study of Zea mays with 96 samples.

Results

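The effect of losing O2 in endosperm that already lacked NKD1 and NKD2 was measured at 16 DAP (days after pollination), by comparing the 4 libraries of the *nkd1 nkd2 o2* triple mutant with the 4 libraries of the *nkd1 nkd2* double mutant over all genes. These are 8 of the 96 RNA-seq libraries of the series. Both genotypes were homozygous for the alleles *nkd1-Ds* and *nkd2-null*, the double mutant carried the functional *o2* allele, and the triple mutant was homozygous for mutant *o2*. All plants were of the W22 inbred and descended from the same ears, which segregated after a triple heterozygote was selfed. A library was made from total RNA of a pool of 3 immature endosperms, and the 4 libraries of a genotype came from 4 independent ears, named s1 to s4 here. The mutations were present in all cells and the endosperm was not separated into its tissues, so fewer cells of a type and less RNA per cell cannot be told apart in these bulk samples.

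O2 is a basic leucine zipper (bZIP) transcription factor of the starchy endosperm, best known for activating the genes of the 22-kDa α-zeins, and loss of O2 gives opaque kernels that are low in zein and rich in lysine. Zeins are the prolamin storage proteins of maize, which accumulate in protein bodies of the endoplasmic reticulum during grain filling. NKD1 and NKD2 are INDETERMINATE DOMAIN transcription factors encoded by duplicate genes, which act in aleurone differentiation and in the activation of storage genes, *o2* among them.

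The 8 libraries held 40450228 to 56625135 reads on genes each, so counting error was small except for genes of few reads. The Pearson correlation of log2 CPM between libraries of a genotype was 0.979 to 0.993 in *nkd1 nkd2* and 0.984 to 0.993 in *nkd1 nkd2 o2*. Expression levels are given as CPM, the number of reads of a gene scaled to the total on all genes, after TMM normalization. A differentially expressed gene (DEG) had an adjusted P under 0.05 in the quasi-likelihood test of edgeR with Benjamini-Hochberg adjustment and a change of more than 1, up or down, in log2 fold change (log2FC). The log2FC is that of the triple mutant against the double mutant unless another comparison is named, and errors are SD with n = 4 libraries. A single library stood apart, *nkd1 nkd2 o2* s4. There, 14 of the 17 zein genes and 78 genes of the storage module described below were far above s1 to s3 (beyond the 95% limit of Dixon's test). None of the zein genes was as far above the others in s1, s2, or s3, and of the storage module 9, 15, and 6 genes were. Over all 24239 genes tested, 419 were far higher in s4, and 260, 259, and 181 in s1, s2, and s3. The *o2* transcript of s4 was as low as in the other libraries of its group, so that its label holds for *o2*. The zein genes also served to check the labelled tissue: 4 of the 10 most abundant genes in every *nkd1 nkd2* library were zein genes, as in starchy endosperm. Markers of the other tissues could be matched for 2 of 56 symbols, *umi12* of the transfer layer list, at 45.0 ± 16.3 CPM in *nkd1 nkd2* and 5.99 ± 0.812 CPM in *nkd1 nkd2 o2* (log2FC −2.91), and *c1* of the aleurone list, at 0.333 ± 0.168 and 0.0412 ± 0.0485 CPM (log2FC −2.91, lost without s4), so the share of the tissues in the results below was not tested. Counts are therefore also given without s4 where they lead an account, a comparison chosen after its zein levels were seen.

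Of 24239 genes tested, 2228 were DEGs, with 914 higher in *nkd1 nkd2 o2* (3.77% of the genes tested) and 1314 lower (5.42%). The median log2FC over all genes tested was −0.01. The falls held the extremes: 126 genes were lower by more than 5 on the log2 scale and 60 were higher by as much. Of the 126 falls, 96 belonged to M1, the storage module of the study, as did 0 of the 60 rises. M1 held 494 of the 24239 genes tested. The study built it from libraries of this series, so this count is not independent evidence of its direction. Gene descriptions and symbols were read only for M1 and a part of M3, another module of the study. The CPM values of both genotypes did not overlap for 1914 of the 2228 DEGs, against 30.7% of all genes tested. The DEGs were called on the same libraries, so their higher share is not independent evidence for the calls. Without s4, 2213 DEGs were called, with 906 higher (3.68%) and 1307 lower (5.3%) of 24642 genes tested.

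The transcripts of the mutated genes were checked first. *o2* (Zm00001d018971) was at 393, 334, 446, and 486 CPM in the *nkd1 nkd2* libraries s1 to s4, and at 0.172, 0, 0.0309, and 0.0304 CPM in the *nkd1 nkd2 o2* libraries (log2FC −12.77 with a standard error of 0.436, adjusted P = 5.4e-19). Every triple mutant library was thus nearly without *o2* reads. *nkd2* (Zm00001d026113) was at 0.194 ± 0.127 CPM in the double mutant and 0.340 ± 0.106 CPM in the triple mutant, against 29.1 ± 3.74 CPM in wild-type (WT), and did not differ between the mutants beyond the threshold (log2FC 0.90, adjusted P = 0.0882). *nkd1* (Zm00001d002654) was at 62.2 ± 5.45 and 54.2 ± 5.89 CPM in the double and triple mutants (log2FC −0.20, adjusted P = 0.302). These counts include *nkd1* transcripts that carry the *nkd1-Ds* insertion and do not measure NKD1 function. In *o2* single mutants, which carry functional *nkd1*, the *nkd1* level was 524 ± 143 CPM against 118 ± 11.1 CPM in WT (log2FC 2.15). This effect of *o2* differed from that in the *nkd1 nkd2* background by −2.35 on the log2 scale (adjusted P = 1.2e-09, edgeR quasi-likelihood test of the difference, Benjamini-Hochberg adjustment). The functional *nkd2* of *o2* single mutants was at 7.47 ± 1.91 CPM, lower than in WT (log2FC −1.96, adjusted P = 2.2e-07, edgeR quasi-likelihood test).

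Zein transcripts were almost lost. The 17 zein genes that could be named took 11.2, 10.8, 16.1, and 9.78% of the reads on genes in *nkd1 nkd2* s1 to s4, and 0.00177, 0.00343, 0.00193, and 0.103% in *nkd1 nkd2 o2* s1 to s4. The lowest double mutant library was far above the highest triple mutant library. The mean share was 12.0 ± 2.83% against 0.0275 ± 0.0503%, a ratio of 436, and 0.00238 ± 0.000915% with a ratio of 5039 without s4 (P = 0.029 in a two-sided exact permutation test, which is the lowest value possible with 4 libraries in each group and stays the same after adjustment over 6 such tests). With functional NKD1 and NKD2, the same genes took 4.01 ± 0.238% of the reads in *o2* and 18.2 ± 0.549% in WT, a ratio of 4.55 (exact permutation test, P = 0.029). The plot of read shares shows all 4 genotypes.

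**Figure D1:**
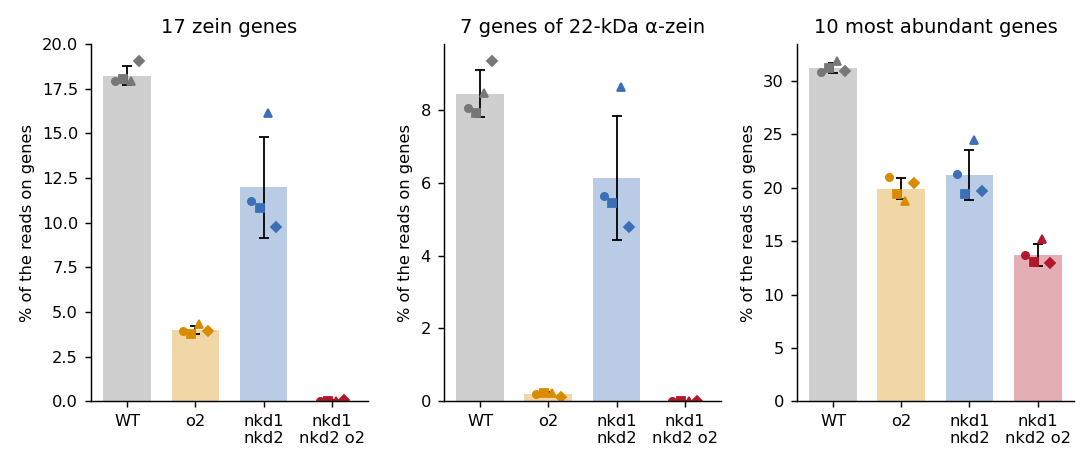
Share of the reads on genes (%) taken by the 17 zein genes (left), by the 7 genes of 22-kDa α-zeins (middle), and by the 10 most abundant genes of each library (right), at 16 DAP. Bars give the mean and error bars the SD of 4 libraries, and points are the libraries s1 (circle), s2 (square), s3 (triangle), and s4 (diamond); the zein bar of *nkd1 nkd2 o2* is at 0.0275%, against 12.0% in *nkd1 nkd2*.

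All 7 genes of 22-kDa α-zeins, the class that O2 is known to activate directly, were lower, with a median log2FC of −11.52. Their joint share of the reads was 6.13 ± 1.71% in *nkd1 nkd2* and 0.00184 ± 0.00359% in *nkd1 nkd2 o2*. Without s4 the latter was 4.3e-05 ± 1.1e-05%, and the median log2FC of the class was −15.78 with the genes at 0 reads set to their bounds. *az22z3* (Zm00001d048809), which had the most reads of them, was at 20341, 19494, 32823, and 19834 CPM in *nkd1 nkd2* and at 0.0312, 0, 0, and 36.9 CPM in *nkd1 nkd2 o2*. Only s1 and s4 of the triple mutant had reads of this gene, s4 most of them, and all 4 were below every double mutant library (log2FC −11.29 with a standard error of 1.47, adjusted P = 8.4e-07). *floury2* (*fl2*, Zm00001d049243), known from its floury mutant kernels, was at 17753, 16026, 28945, and 14269 CPM and at 0.109, 0.185, 0.217, and 3.91 CPM (log2FC −14.09 with a standard error of 0.953, adjusted P = 2.8e-12). *zp3* (Zm00001d048817) fell from 14698 ± 5527 to 1.59 ± 3.02 CPM (log2FC −13.17). *az22z5* (Zm00001d048806) had 866, 461, 2637, and 105 CPM in the double mutant and 0 reads in all 4 triple mutant libraries, at least 22397-fold lower with a floor of 3 counts per library. Its spread among the double mutant libraries was the widest of the 7 genes. *az22z4* (log2FC −11.52), a kafirin-like gene (Zm00001d048808, log2FC −11.49), and *azs22-8* (log2FC −9.65) made up the rest.

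All 8 genes of 19-kDa α-zeins were lower as well, by a median log2FC of −8.55, or −14.17 without s4. *floury4* (*fl4*, Zm00001d048851) was at 6933, 7229.9, 12692, and 7779 CPM in *nkd1 nkd2* and at 0.640, 0.713, 1.04, and 178 CPM in *nkd1 nkd2 o2* (log2FC −7.58 with a standard error of 1.17, adjusted P = 1.1e-05). Here s1 to s3 kept about 1 CPM or less while s4 had 178 CPM, still below every double mutant library. *zmpms1* (log2FC −7.6), the 19B1 gene Zm00001d048848 (log2FC −8.52), the A30 gene Zm00001d048852 (log2FC −8.70), *zpl2a* (log2FC −8.68), and the Z1A gene Zm00001d049476 (log2FC −8.59) had the same pattern, with s4 far above s1 to s3. *az19d2* (Zm00001d030855) did not: it was at 2.22, 12.6, 6.14, and 7.03 CPM in *nkd1 nkd2 o2* s1 to s4, the most reads of the 8 genes in each of s1 to s3, against 2537, 2154, 4282, and 2052 CPM in *nkd1 nkd2* (log2FC −8.62 with a standard error of 0.494, adjusted P = 7.8e-14). *zp2* (Zm00001d019155) was at 484, 12.7, 23.4, and 22.1 CPM in *nkd1 nkd2*, so that s1 alone gave most of its mean, and at 0.156, 0.0998, 0.139, and 11.8 CPM in *nkd1 nkd2 o2*. The groups did not overlap for *zp2*, but s4 of the triple mutant came close to s2 of the double mutant (log2FC −5.47 with a standard error of 1.05, adjusted P = 0.000207).

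The remaining zein genes that could be named were *zp15*, the gene of the 15-kDa β-zein, and *dzs18*, the gene of an 18-kDa δ-zein rich in methionine. *zp15* (Zm00001d035760) was at 19928, 16768, 16972, and 16216 CPM in *nkd1 nkd2* and 7.6, 9.44, 5.71, and 129 CPM in *nkd1 nkd2 o2* (log2FC −8.85 with a standard error of 0.755, adjusted P = 3.6e-10). *dzs18* (Zm00001d037436) was at 134, 111, 149, and 99.7 CPM and 1.22, 0.827, 0.743, and 0.259 CPM (log2FC −7.34 with a standard error of 0.371, adjusted P = 4.3e-15), and it was the single zein gene for which s4 was the lowest triple mutant library. Over all 17 zein genes the median log2FC was −8.70, and without s4 it was −14.48, with *az22z5* and the kafirin-like gene, which were then at 0 in the triple mutant, set to their bounds. All 17 fell with and without s4. Reads over more than 1 gene, which were left uncounted, were 2.86 to 4.08% of a library in the double mutant and 1.10 to 1.17% in the triple mutant, and reads aligned to more than 1 place were 7.64 to 9.19% and 5.49 to 5.87%. Near-identical zein copies share reads, so the levels of single zein genes are less certain than the level of the family. The plot of zein genes shows every library.

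**Figure D2:**
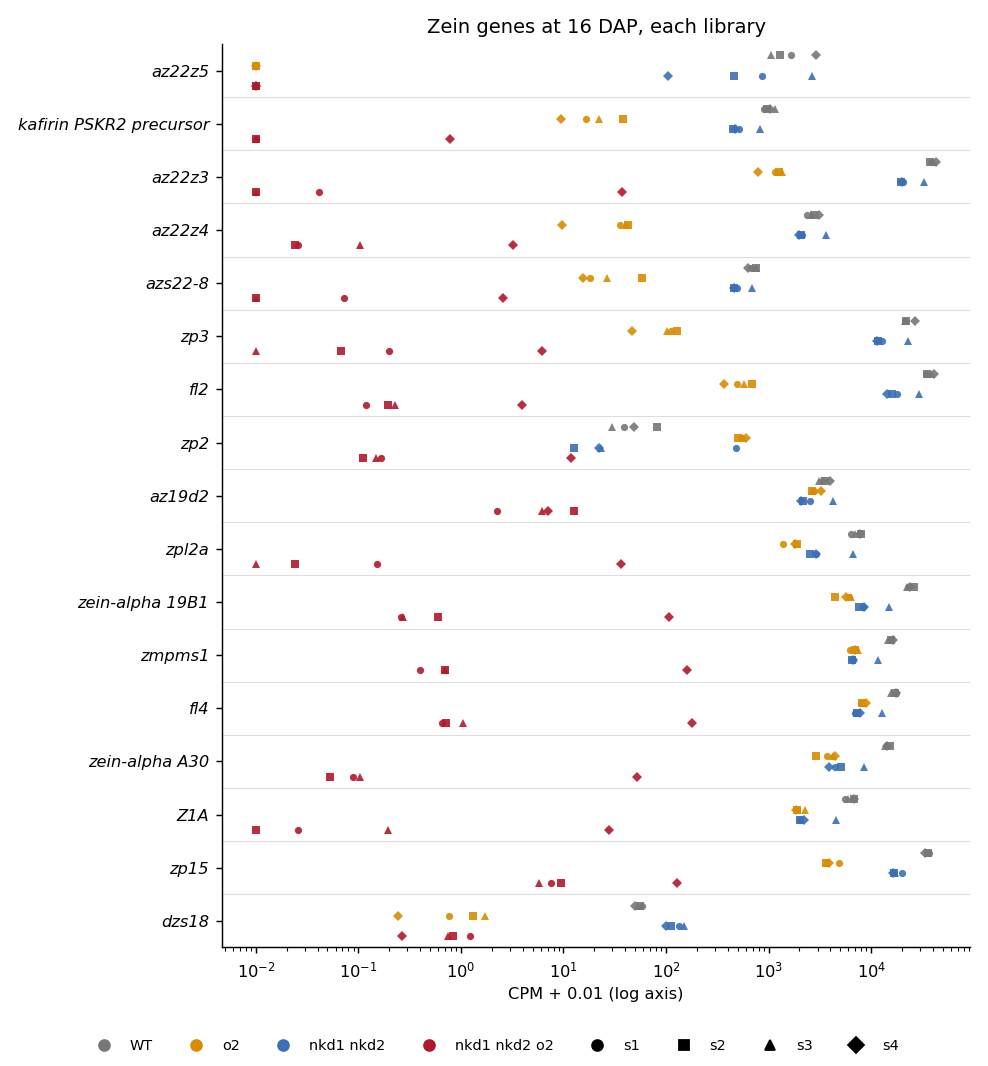
CPM + 0.01 (log axis) of the 17 zein genes at 16 DAP in each library of WT (grey), *o2* (orange), *nkd1 nkd2* (blue), and *nkd1 nkd2 o2* (red), with circles for s1, squares for s2, triangles for s3, and diamonds for s4. The red points of s1 to s3 lie lowest in nearly all genes, and the red diamond of s4 lies above them in 14 of the 17 genes but below every blue point.

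Regulators of storage genes fell along with the zein genes: 6 of the 7 that passed the filter on low counts, of 8 matched, were lower (5 without s4), and none was higher. Matching by symbol or description reached only M1 and the part of M3 that was read. Of all genes tested 5.42% were lower, and of the M1 genes tested 363 of 494, so this count is not independent of M1. *bzip17* (Zm00001d046937), a bZIP gene of the endosperm, was at 130.3, 121, 149, and 140.3 CPM in *nkd1 nkd2* and at 0.328, 0.314, 0.294, and 5.49 CPM in *nkd1 nkd2 o2* (log2FC −6.39 with a standard error of 0.609, adjusted P = 3.4e-09; log2FC −8.73 without s4). *gbf1* (Zm00001d039065), described as a G-box binding factor, was at 103, 86.2, 86.8, and 93.0 CPM and 4.26, 6.74, 3.84, and 11.6 CPM (log2FC −3.80 with a standard error of 0.338, adjusted P = 8.7e-10). For both genes s4 was the highest triple mutant library, and no library of one genotype reached the other. The MYB-related gene *mybr13* (Zm00001d038288) fell from 6.15 ± 1.06 to 0.333 ± 0.274 CPM (log2FC −4.20), and *bzip104* (Zm00001d015421) from 50.5 ± 5.06 to 16.2 ± 1.37 CPM (log2FC −1.64). A second gene described like *bzip104* as basic leucine zipper 9, Zm00001d006223, was low throughout, at 0.870 ± 0.313 and 0.00771 ± 0.00890 CPM (log2FC −6.41). The heat stress factor gene *hsftf10* (Zm00001d021263) was also low, at 0.426 ± 0.104 and 0.164 ± 0.0714 CPM (log2FC −1.36), and its call was lost without s4 (adjusted P = 0.0824). *wri1* (Zm00001d005016), an AP2 factor that activates oil synthesis, was at 8.84 ± 4.81 and 5.41 ± 0.223 CPM and did not pass (log2FC −0.71, adjusted P = 0.0523).

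*scl1* (Zm00001d009646), a scarecrow-like gene of the GRAS family, was on none of the lists. Transcription factor genes were ranked only where M1 or the part of M3 that was read described them. Among the 14 such DEGs whose mean reached 100 counts and whose groups did not overlap, *scl1* fell most after *o2* and *bzip17*. It was at 279, 284, 383, and 292 CPM in *nkd1 nkd2* and 2.58, 1.97, 1.67, and 14.6 CPM in *nkd1 nkd2 o2* (log2FC −5.89 with a standard error of 0.558, adjusted P = 3.0e-09). The s4 library was again the highest of its group, and the groups were far apart.

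The list of genes linked to O2 holds enzymes of amino acid and carbon metabolism and *rip1*, which is also counted among the defence genes below, and all 7 that were tested, of 8 matched, were lower (6 without s4). Of all genes tested 5.42% were lower. Symbols and descriptions were read only for M1 and a part of M3, so the count of this list is not independent of M1. *lkrsdh1* (Zm00001d052079), which encodes the bifunctional enzyme of lysine breakdown, was at 757, 651, 908, and 483 CPM in *nkd1 nkd2* and 4.32, 3.01, 3.14, and 41.5 CPM in *nkd1 nkd2 o2* (log2FC −5.75 with a standard error of 0.635, adjusted P = 5.3e-08; log2FC −7.63 without s4). The s4 library was again far above s1 to s3, yet below every double mutant library. The genes of pyruvate orthophosphate dikinase, which makes phosphoenolpyruvate from pyruvate, fell unequally: *pdk2* (Zm00001d010321) from 15165 ± 2155 to 4331 ± 649 CPM (log2FC −1.81) and *pdk1* (Zm00001d038163) from 4152 ± 373 to 403 ± 61.7 CPM (log2FC −3.37). *asn2* (Zm00001d044608), an asparagine synthetase gene, was at 18.4, 14.9, 25.0, and 8.92 and 0.421, 0.870, 0.665, and 0.532 CPM (log2FC −4.75 with a standard error of 0.374, adjusted P = 7.3e-11). A diaminopimelate decarboxylase gene (Zm00001d022593), of lysine synthesis, was near 0 in both genotypes, and its call was lost without s4 (log2FC −3.01, and log2FC −2.61, adjusted P = 0.0947 without s4).

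*rip1* (Zm00001d010371), the gene of a ribosome-inactivating protein of the endosperm long known as a target of O2, was at 677, 325, 814, and 480.4 CPM in *nkd1 nkd2* and at 0.0937, 0.0143, 0, and 0.152 CPM in *nkd1 nkd2 o2* (log2FC −13.06 with a standard error of 0.641, adjusted P = 2.7e-15). All triple mutant libraries, s4 among them, were below 1 CPM. In *o2* single mutants *rip1* was at 19.4 ± 5.50 CPM, against 716 ± 94.6 CPM in WT.

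**Figure D3:**
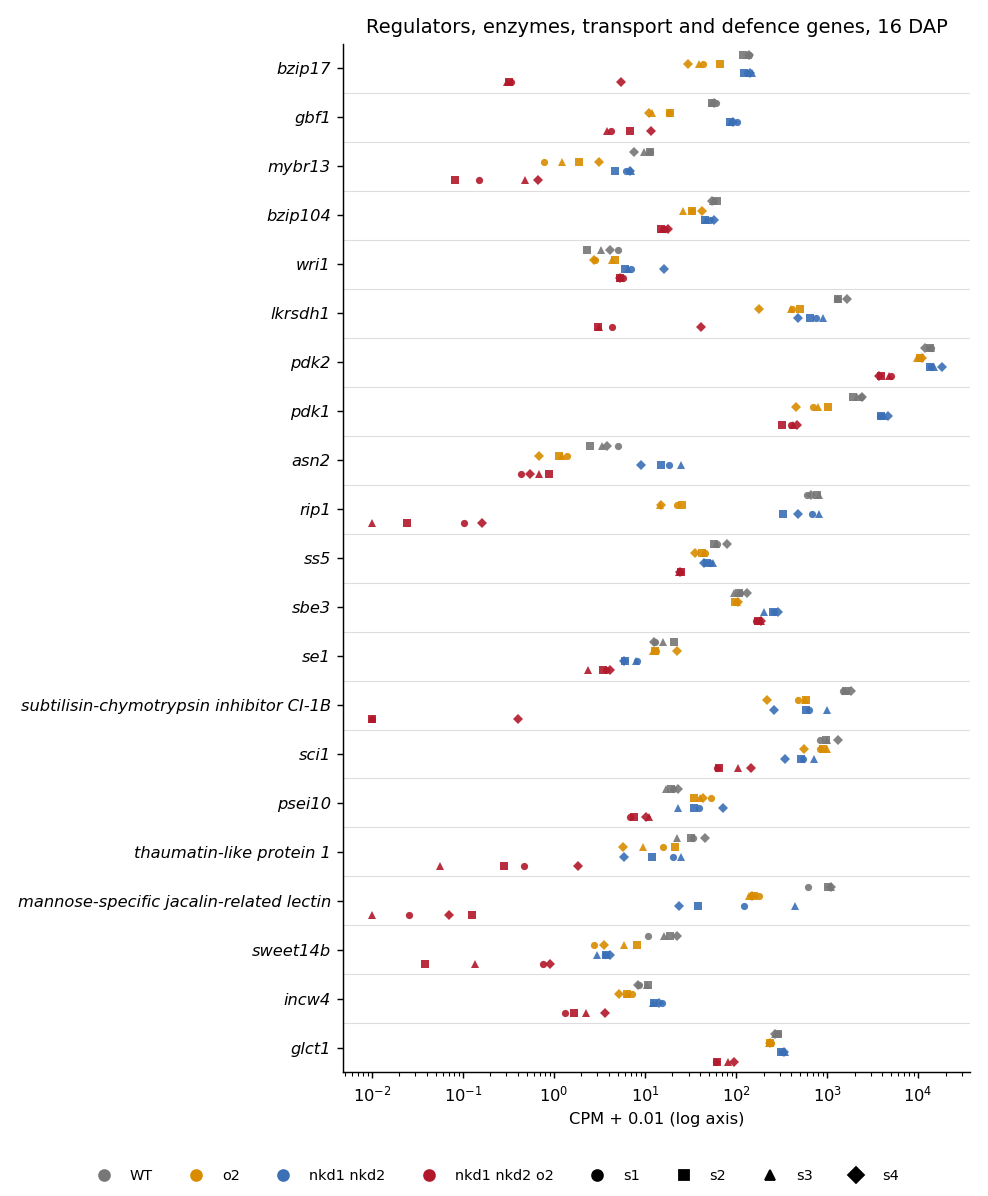
CPM + 0.01 (log axis) at 16 DAP in each library for regulators, enzymes, and genes of starch, defence, and sugar transport, with WT in grey, *o2* in orange, *nkd1 nkd2* in blue, and *nkd1 nkd2 o2* in red, and with circles for s1, squares for s2, triangles for s3, and diamonds for s4. The red points lie below the blue points in every gene drawn, by the least in *wri1* and *sbe3*, while the orange points of *o2* lie between the grey and the red points for *rip1*, *lkrsdh1*, and *bzip17*.

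Of the 5 genes described as protease inhibitors or defence proteins, 4 were lower with and without s4, and none was higher. Of all genes tested 5.42% were lower. The 4 were *rip1* and the next 3. All 4 belong to M1, and descriptions were read only for M1 and a part of M3, so this count is not independent of M1. The proteinase inhibitor gene *sci1* (Zm00001d011080) fell from 528 ± 153 to 94.0 ± 38.8 CPM (log2FC −2.49), a thaumatin-like gene (Zm00001d022637) from 15.7 ± 8.48 to 0.645 ± 0.794 CPM (log2FC −4.59), and the cystatin gene *psei10* (Zm00001d012068) from 41.8 ± 20.6 to 8.86 ± 2.08 CPM (log2FC −2.24). The next 2 genes are outside that list. The gene of a subtilisin-chymotrypsin inhibitor (Zm00001d035681) was at 639, 587, 999, and 258 CPM in *nkd1 nkd2*, and only s4 of the triple mutant had reads of it, at 0.396 CPM (log2FC −12.58 with a standard error of 0.782, adjusted P = 4.7e-13). A gene of a mannose-specific jacalin-related lectin (Zm00001d011012) was among the largest falls, from 121, 38.5, 444, and 23.8 CPM in the double mutant to 0.0156, 0.114, 0, and 0.0609 CPM in the triple mutant (log2FC −11.56 with a standard error of 0.967, adjusted P = 2.5e-10).

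All 3 sugar transport and cleavage genes that could be matched were lower, with and without s4. Genes outside M1 and the part of M3 that was read could not be matched by symbol or description. In M1, built from libraries of this series, 363 of 494 genes tested were lower, so this count is not independent evidence. The plastid glucose translocator gene *glct1* (Zm00001d008567) fell from 329 ± 13.0 to 75.0 ± 17 CPM (log2FC −2.13), the cell wall invertase gene *incw4* (Zm00001d001941) from 13.6 ± 1.41 to 2.20 ± 1.01 CPM (log2FC −2.62), and the sugar exporter gene *sweet14b* (Zm00001d049252) from 3.59 ± 0.495 to 0.446 ± 0.432 CPM (log2FC −3.01). Of the 3 starch genes matched, *ss5* (log2FC −1.04) and *se1* (log2FC −1.03) were just past the limit on log2FC, and the branching enzyme gene *sbe3* was not (log2FC −0.48, adjusted P = 0.00319). Leaving out single libraries brought the count of starch genes called down to 0. The other starch genes of the list carry no name in the tables used here and were not analysed here.

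Few of the genes that rose could be named, since only 26 of the 914 carry a description in the part of the study's gene tables that was read. That part held M1 and some of M3, with descriptions or symbols for 824 of the genes tested. M1 had 363 falls and 2 rises, so the named genes lean to falls by this coverage. The heat shock list was split, with 1 of 5 genes higher and 3 lower (1 and 2 without s4), where 3.77% and 5.42% of all genes tested were. The mitochondrial HSP70 gene Zm00001d006036, for a chaperone of protein import, was at 98.6, 83.5, 92.0, and 119 CPM in *nkd1 nkd2* and 388, 339.7, 427, and 371 CPM in *nkd1 nkd2 o2*, so that all triple mutant libraries were higher (log2FC 1.95 with a standard error of 0.141, adjusted P = 1.1e-11). Another HSP70 gene (Zm00001d048073, log2FC −1.65), a class I small heat shock gene (Zm00001d039933, log2FC −1.90), and *hsftf10* were lower. A gene for a subunit of the inner membrane translocase of mitochondria (Zm00001d003846) rose from 1.43 ± 0.241 to 4.20 ± 0.417 CPM (log2FC 1.55). *ago2a* (Zm00001d002316), an argonaute gene of small RNA silencing, was at 4.78, 3.86, 5.67, and 2.43 CPM and 16.2, 11.5, 13.1, and 20.1 CPM (log2FC 1.87 with a standard error of 0.452, adjusted P = 0.00228). A gene for a PLP3B-like thioredoxin domain protein (Zm00001d007600) was at 9.67, 8.98, 9.35, and 12.6 CPM and 42.6, 46.6, 52.4, and 47.3 CPM (log2FC 2.22 with a standard error of 0.367, adjusted P = 3.1e-05). A DnaJ co-chaperone gene (Zm00001d009027, log2FC 1.3), a gene for an asparagine amidase that trims glycans from glycoproteins (Zm00001d008905, log2FC 1.77), and a UDP-glycosyltransferase gene (Zm00001d008795, log2FC 1.20, adjusted P = 0.127 without s4) also rose.

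Few genes of the cell cycle and chromatin could be named. Of 12 histone genes 1 rose, where 3.77% of all genes tested did, and the median log2FC of the 12 was 0.13. It was an H2A gene (Zm00001d007567), the least expressed of the 12, at 1.02 ± 0.296 and 3.14 ± 0.311 CPM (log2FC 1.62). A DNA replication licensing factor gene (Zm00001d009374) rose with log2FC 1.02 (adjusted P = 0.0377), a call that was lost without any 1 of 6 of the 8 libraries (adjusted P = 0.0601 to 0.0895), and *mcm6* (Zm00001d010406) had log2FC 0.93, short of the limit. A D-type cyclin gene (Zm00001d033330) fell from 0.641 ± 0.134 to 0.0344 ± 0.0151 CPM (log2FC −4.12). A GH3 gene (Zm00001d008957), for an enzyme that joins auxin to amino acids, fell from 43.7 ± 2.36 to 14.1 ± 5.33 CPM (log2FC −1.63).

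The coexpression modules of the study gave a wider view of the same samples. M1, which the study built from these libraries and which holds the zein genes, has 529 genes, and 363 of the 494 tested were lower and 2 higher (365 and 4 of 499 without s4). Their median log2FC was −2.39, or −2.33 with the 24 genes that had 0 reads in all libraries of a genotype set to their bounds, and the module took 21.6 ± 3.95% of the reads in *nkd1 nkd2* and 1.52 ± 0.118% in *nkd1 nkd2 o2*. Since M1 was chosen on these samples, its count is not independent evidence of its direction. Of M3, of which only a part of 612 genes was read, 27 of 574 genes tested were higher and 25 lower (24 and 24 of 575 without s4), shares close to the 3.77% and 5.42% of all genes tested, with a median log2FC of 0.17. Of the 20 hub genes of the study that were tested, 4 were higher and 5 lower, and 3 and 5 without s4, where 3.77% and 5.42% of all genes tested were. The study chose its hub genes by module membership on libraries of this series, and *o2* is one of them, so their count is not independent evidence either. The higher hub genes were the auxin response factor gene *arf1* (Zm00001d031522), at 34.5, 29.9, 33.3, and 28.9 CPM in *nkd1 nkd2* and 109, 122, 108, and 113 CPM in *nkd1 nkd2 o2* (log2FC 1.83 with a standard error of 0.189, adjusted P = 1.5e-08), the heat stress factor gene *hsftf17* (log2FC 2.37), the B3 domain gene *abi39* (log2FC 1.23), and the MYB-related gene *mybr24* (log2FC 2.23), whose call was lost without s4 (adjusted P = 0.0604). The lower ones were *o2*, *bzip17*, *gbf1*, *mybr13*, and the bHLH gene *bhlh96* (log2FC −1.11).

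The largest changes among genes without a description were of both signs. Zm00001d018970, whose identifier directly precedes that of *o2*, was at 0.172, 0.0367, 0, and 0.116 CPM in *nkd1 nkd2* and at 209, 229, 302, and 274 CPM in *nkd1 nkd2 o2* (log2FC 11.44 with a standard error of 0.393, adjusted P = 5.4e-19). WT had 0.0820 ± 0.143 CPM of the same gene, and *o2* single mutants had 265 ± 64.6 CPM. It was thus close to 0 in all 8 libraries with functional *o2* and abundant in all 8 with mutant *o2*, the reverse of *o2* itself. Zm00001d033824 had 0 reads in every *nkd1 nkd2* library and 0.718, 6.86, 5.77, and 7.80 CPM in *nkd1 nkd2 o2*, at least 86.7-fold higher, but the 4 WT libraries ranged from 0 to 10.5 CPM and its call was lost without s4 (adjusted P = 0.0631). Among the falls, the M1 gene Zm00001d048810, whose identifier lies among those of the 22-kDa α-zein genes, was at 615, 552, 820.3, and 569 and 0.0156, 0, 0, and 0.259 CPM (log2FC −13.14 with a standard error of 0.886, adjusted P = 2.8e-12), and the M1 gene Zm00001d019162 at 221, 287, 563, and 304 and 0, 0, 0.0928, and 0.183 CPM (log2FC −12.24 with a standard error of 0.598, adjusted P = 2.7e-15).

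The same loss of O2 with functional NKD1 and NKD2 was measured by 4 *o2* and 4 WT libraries of 16 DAP. No library is in both comparisons, although all share the normalization, the filter on low counts, and the estimate of the spread. There, 1297 genes were higher (5.35%) and 1725 lower (7.12%). The falls of the *nkd1 nkd2* background overlapped in part with those: 484 genes fell in both, which is 36.8% of the falls in the *nkd1 nkd2* background and 28.1% of those in *o2* against WT, and 62 fell in the former and rose in the latter. Without s4, 490 falls were shared (37.5% and 28.1%) and 57 were opposite. For the rises, 240 were shared, 26.3% and 18.5%, and 103 went the opposite way (246 and 110 without s4). The difference between both effects, tested for all genes in the same fit, passed for 5464 genes, of which 2366 were positive (9.76% of the genes tested) and 3098 negative (12.8%). Without s4 it passed for 5105 genes, 2274 positive (9.23%) and 2831 negative (11.5%). Of the 1314 falls in the *nkd1 nkd2* background, 536 had a negative difference, 30 a positive one, and 748 neither, and of the 1307 falls without s4 these were 564, 28, and 715.

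Zein genes stood out in this difference, which was negative for 16 of 17, with and without s4, so that their log2FC was lower where NKD1 and NKD2 were absent. The exception was *az22z5*, which was at 0 in all libraries of both genotypes with mutant *o2*. The 22-kDa class was lower in *o2* against WT in 7 of 7 genes, and the difference was −7.94 for *fl2* (adjusted P = 2.7e-07, edgeR quasi-likelihood test). *fl2* was at 486, 684, 573, and 368 CPM in *o2* and at 34516, 35255, 38225, and 41416 CPM in WT. Of the 19-kDa class, *fl4* was at 7882, 8059, 8402, and 8870.0 CPM in *o2* and 17311, 16949.9, 15749.5, and 17436 CPM in WT (log2FC −1.02), and the difference was −6.56 (adjusted P = 0.000687), or −12.38 without s4. In the fit of all libraries 0 of 8 genes of the 19-kDa class were called lower in *o2* against WT by edgeR (3 were lower at an unadjusted P under 0.05) and 0 by DESeq2, which gave no adjusted P for 6 of the 8, but 6 of 8 were without *nkd1 nkd2 o2* s4 in the fit, where 1313 genes were higher (5.33%) and 1742 lower (7.07%), and also in a fit of *o2* and WT alone. The standard error of *fl4* in that comparison was 0.883 with s4 in the fit and 0.232 without it. *zp2* was the 1 zein gene that was higher in *o2*, at 533, 501, 559, and 597 CPM against 38.7, 81.1, 29.8, and 48.1 CPM in WT (log2FC 3.47, adjusted P = 0.00466), and its difference was the largest of the class, −8.94. The plot of both effects of *o2* shows these classes.

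**Figure D4:**
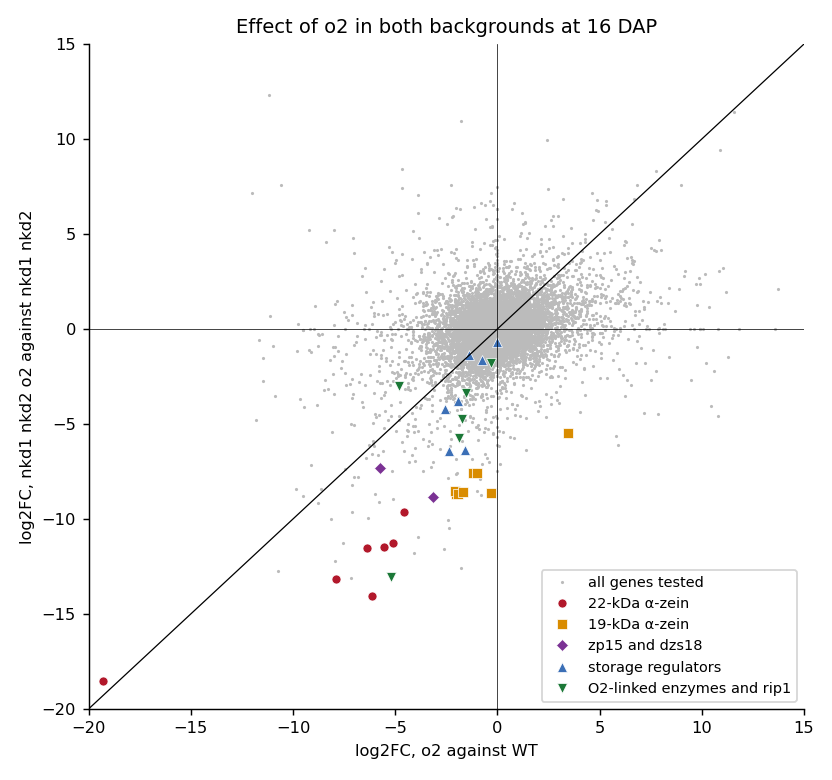
log2FC of *o2* against WT (horizontal axis) and of *nkd1 nkd2 o2* against *nkd1 nkd2* (vertical axis) at 16 DAP for each gene tested (grey), with the zein classes, storage regulators, and enzymes in colour, and a line where both are equal. The 19-kDa α-zein genes (orange squares) lie near −8 on the vertical axis and mostly between −3 and 0 on the horizontal one, well below the line, whereas *az22z5* at the lower left was at 0 in both genotypes with mutant *o2*, so that its position has no meaning beyond a large fall.

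Beyond the zein genes, the difference was negative for 4 of the 7 regulators (5 without s4) and 6 of the 7 genes of the O2-linked list, with or without s4. It was negative for 12.8% of all genes tested. In M1 it was negative for 166 of 494 genes tested and positive for 33. Both lists were matched only within M1 and the part of M3 that was read, so their counts are not independent of M1. *bzip17* was at 43.8, 66.4, 39.0, and 29.4 CPM in *o2* and 138, 119.9, 133, and 140.1 CPM in WT, and its difference was −4.82 (adjusted P = 1.5e-05). *rip1* had a difference of −7.86 (adjusted P = 6.7e-09), *lkrsdh1* of −3.86 (adjusted P = 0.000419), and the subtilisin-chymotrypsin inhibitor gene of −10.78 (adjusted P = 5.5e-10). *glct1* was at 235 ± 5.92 CPM in *o2* and 279 ± 11.9 CPM in WT, and its difference was −1.89 (adjusted P = 6.7e-09). *psei10* moved in opposite directions, with log2FC 1.09 in *o2* against WT and −2.24 in the *nkd1 nkd2* background. For *arf1* the effects were alike in size, 1.93 and 1.83, and the difference of −0.10 had a standard error of 0.266 (adjusted P = 0.841).

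Some genes that rose in the *nkd1 nkd2* background fell in *o2* against WT. *hsftf17* (Zm00001d033987) was at 0.946, 0.349, 1.3, and 1.44 CPM in *nkd1 nkd2*, 4.84, 8.30, 3.42, and 4.23 CPM in *nkd1 nkd2 o2*, 19.3, 17.7, 10.4, and 34.4 CPM in WT, and 2.67, 0.726, 0.559, and 0.953 CPM in *o2*. Its level was thus high in WT and lowest in both genotypes that lack either O2 or NKD1 and NKD2, and the difference was 6.41 (adjusted P = 5.3e-07). The MADS-box gene *mads26* (Zm00001d017932) was at 1.73 ± 0.570 CPM in *nkd1 nkd2* and 4.32 ± 0.989 CPM in *nkd1 nkd2 o2*, against 5.0 ± 0.712 CPM in WT and 1.77 ± 0.450 CPM in *o2* (difference 2.82, adjusted P = 1.0e-06). The PLP3B-like gene (difference 3.52) and the DnaJ gene (difference 2.15) were likewise higher in WT and *nkd1 nkd2 o2* than in both other genotypes. Among genes without a description, Zm00001d039231 was at 11.5, 10.7, 6.53, and 15.5 CPM in WT, 0 in all *o2* libraries, 0.0172, 0.0735, 0, and 0 CPM in *nkd1 nkd2*, and 7.68, 7.54, 0.0155, and 0 CPM in *nkd1 nkd2 o2*, and Zm00001d038019 had reads in s1 of WT and in s1 and s2 of *nkd1 nkd2 o2* and in no other library of the 4 genotypes. In these genes the libraries of the triple mutant disagreed with each other. Zm00001d047323 was at 38.5, 38.1, 34.6, and 35.3 CPM in *o2*, at 0 in WT, and at 0.952, 1.14, 0.495, and 0.35 CPM in *nkd1 nkd2 o2*, and Zm00001d048089 at 14.8, 13.4, 14.9, and 12.4 CPM in *o2* and at 0 in all *nkd1 nkd2 o2* libraries.

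The comparison was repeated with the libraries of 8 and 12 DAP, which came from other samples. At 12 DAP, 912 genes were higher (3.72%) and 922 lower (3.76%), and at 8 DAP, 134 were higher (0.526%) and 1416 lower (5.56%). Of the falls at 16 DAP, 508 (38.7%) were called lower at 12 DAP and 299 (22.8%) at 8 DAP. Of the rises at 16 DAP, 288 (31.5%) were called higher at 12 DAP and 53 (5.8%) at 8 DAP, while 73 were lower at 8 DAP. All 17 zein genes were lower at 12 DAP and 13 of 17 at 8 DAP, when their joint share of the reads was 0.0591 ± 0.0848% in *nkd1 nkd2* and 8.9e-06 ± 1.1e-05% in *nkd1 nkd2 o2*. The s2 library of the double mutant at 8 DAP, with 0.186%, gave most of this mean, which was 0.0167 ± 0.00278% (n = 3) without it. At 12 DAP the zein share was 3.25 ± 0.739% in *nkd1 nkd2* and 0.000358 ± 0.000369% in *nkd1 nkd2 o2*. M1 had 306 of 480 genes lower at 12 DAP and 151 of 389 at 8 DAP.

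The order of the ages differed between genes, as the plot by age shows. *bzip17* was lower at all 3 ages, with log2FC −3.45, −7.17, and −6.39 at 8, 12, and 16 DAP, and *lkrsdh1* likewise, with −3.04, −5.61, and −5.75. *gbf1* had −1.49, −3.25, and −3.80. *rip1* was not called at 8 DAP (log2FC 1.34, adjusted P = 0.525) and was lower by −10.24 and −13.06 at 12 and 16 DAP. *pdk2* was not called at 8 DAP either (log2FC −0.24). The mitochondrial HSP70 gene had log2FC 0.31, 0.94, and 1.95, and *arf1* 0.23, 2.40, and 1.83. *ago2a* was lower at 8 DAP (log2FC −1.40) and higher at 16 DAP (log2FC 1.87). Whether these values differ between ages was not tested.

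**Figure D5:**
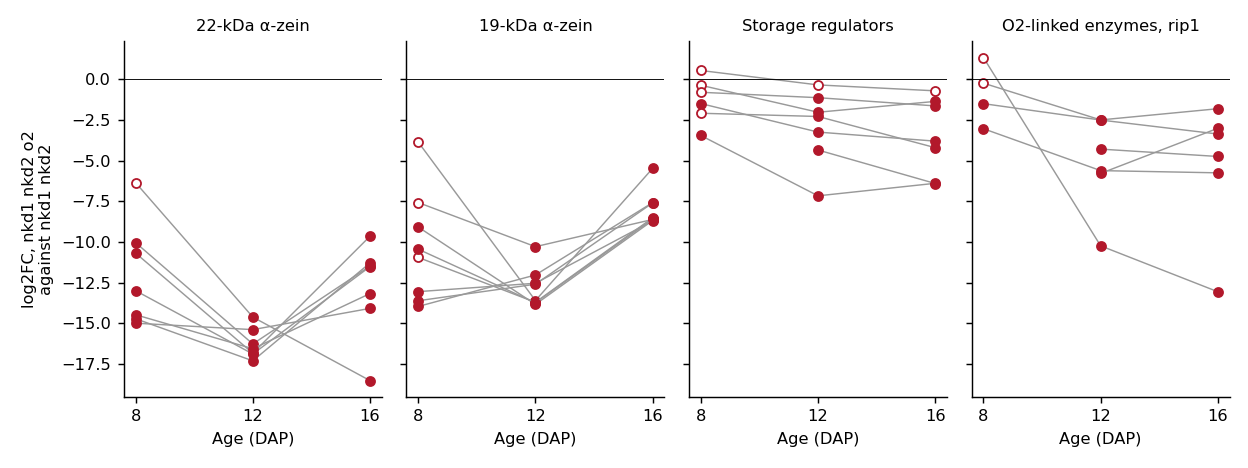
log2FC of *nkd1 nkd2 o2* against *nkd1 nkd2* at 8, 12, and 16 DAP for the 22-kDa α-zein genes, the 19-kDa α-zein genes, the storage regulators, and the O2-linked enzymes with *rip1*, with filled points for DEGs and open points for genes not called, joined by gene. The log2FC of the zein genes was lowest at 8 or 12 DAP apart from 1 gene, in points that depend on the prior count where the triple mutant had 0 reads, and the regulators and enzymes that fell at 16 DAP had mostly fallen at 12 DAP too.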

How the data were processed

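Per the labels and the study's methods, total RNA of pooled endosperms was made into TruSeq RNA libraries and sequenced as 150-bp paired reads on a NovaSeq instrument. Alignment by the authors used HISAT2 2.1.0 and the genome build B73 RefGen_v4, followed by sorting and assembly with SAMtools 1.9 and StringTie 1.3.6, and by counting per gene with HTSeq 0.11.1, and the deposited values are raw counts, in 1 table per library. Reads of W22 were thus placed on genes of B73. The counting mode and the strand setting are not given in the sources used here, so near-identical, overlapping, or antisense genes may share reads. Between 15.8 and 26.5% of the reads of a table fell on the 5 entries that name no gene, and these were left out.

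The counts of the 32 libraries of 16 DAP (8 genotypes with 4 libraries each) were normalized by TMM, filtered with filterByExpr, and fitted with 1 mean per genotype in edgeR 4.0.16 (R 4.3.3), with quasi-likelihood tests and P-values adjusted by Benjamini-Hochberg across every gene in the fit. The same was done at 8 and 12 DAP. The difference between both effects of *o2* was a contrast of the same fit at adjusted P under 0.05. Read shares were compared by exact permutation tests with scipy 1.17.1; DESeq2 1.42.0 served as an alternative, next to DESeq2 size factors, no filter on low counts, fits of only the groups compared, a replicate block, and each library left out in turn. The steps were tested on simulated data. A fold against a group at 0 reads was computed against a floor of 3 counts per library and is a lower bound. The p-values measure the spread between ears.

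The members, lists, and tests were chosen with earlier results of these data known. Named genes were members of the lists, the 10 largest rises and 10 largest falls among DEGs whose mean reached 100 counts and whose groups did not overlap, the same among those with a description, the 6 largest falls and rises of transcription factor genes (2 rises qualified), and the 6 largest differences of each sign; of genes with no description, 2 of each sign are printed. Descriptions, symbols, and modules came from the study's gene tables, of which only M1 and a part of M3 were read. Ranks of described genes and of transcription factor genes, and list members matched by symbol or description, are therefore within these modules. The RefSeq gene table matched 0 of 44146 identifiers of the Zm00001d series, so most list symbols (13 of 173 were matched) and all sequences, promoter motifs, and encoded lysine were not analysed here. The values of 1 list member are not reported here.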

Additional observations from a re-analysis of the deposited data

Results flagged for a closer look

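Libraries that lay far from the other 3 of their group, by Dixon's test at the 95% level, were found for 42 of 170 groups of 4 values. For independent groups chance gives about 1 in 20. These groups share their libraries and many are zein genes, so they are not independent, and an excess over chance was not tested. Of the 42, 22 concerned *nkd1 nkd2 o2* replicate 4, which was the highest of its group in each. Its share of zein reads was 0.103% and that of 22-kDa zein reads 0.00721%. Among zein genes it had 0.776 CPM for the kafirin PSKR2 precursor gene, 36.9 CPM for *az22z3*, 3.21 CPM for *az22z4*, 2.57 CPM for *azs22-8*, 6.12 CPM for *zp3*, 3.91 CPM for *fl2*, 11.8 CPM for *zp2*, 36.4 CPM for *zpl2a*, 106 CPM for the zein-alpha 19B1 gene, 160.5 CPM for *zmpms1*, 178 CPM for *fl4*, 52.4 CPM for the zein-alpha A30 gene, 27.6 CPM for the Z1A gene, and 129 CPM for *zp15*. Among other genes it had 5.49 CPM for *bzip17*, 41.5 CPM for *lkrsdh1*, 0.396 CPM for the subtilisin-chymotrypsin inhibitor CI-1B gene, 54.1 CPM for *pdi2*, 14.6 CPM for *scl1*, and 0.259 CPM for Zm00001d048810. The cause was not tested.

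Replicate 3 of *nkd1 nkd2* was the highest of its group with 817 CPM for the kafirin PSKR2 precursor gene, 32823 CPM for *az22z3*, 3613 CPM for *az22z4*, 691 CPM for *azs22-8*, 22926 CPM for *zp3*, 6659 CPM for *zpl2a*, 14814 CPM for the zein-alpha 19B1 gene, 11679 CPM for *zmpms1*, 12692 CPM for *fl4*, 4510.4 CPM for the Z1A gene, 9.61 CPM for *cdpk13*, and 383 CPM for *scl1*, while Zm00001d048089 had 0 reads there. Further single libraries were *nkd1 nkd2* replicate 1 with 484 CPM for *zp2*, *nkd1 nkd2 o2* replicate 2 with 0.271 CPM for *hsftf10*, *nkd1 nkd2* replicate 4 with 16.0 CPM for *wri1*, *nkd1 nkd2 o2* replicate 1 with 5.74 CPM for *wri1*, *nkd1 nkd2 o2* replicate 3 with 0.108 CPM for the diaminopimelate decarboxylase gene, and *nkd1 nkd2 o2* replicate 2 with 5.80 CPM for *mads26*. The zein read share of WT replicate 4 was 19.1%.

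The effect of *o2* in the *nkd1 nkd2* background differed from its effect with functional NKD1 and NKD2 for 5464 of 24239 genes tested. The limit was adjusted P under 0.05 by edgeR's quasi-likelihood test. Of the 77 genes the text names, 52 passed it. The named genes include the 6 largest differences of each sign, chosen by the same test, and many M1 genes. Their count is therefore not independent evidence and cannot be set against that of all genes. On the log2 scale, the difference among zein genes was −5.92 for the kafirin PSKR2 precursor gene, −6.16 for *az22z3*, −5.11 for *az22z4*, −5.08 for *azs22-8*, −5.29 for *zp3*, −7.94 for *fl2*, −8.94 for *zp2*, −8.32 for *az19d2*, −6.63 for *zpl2a*, −6.43 for the zein-alpha 19B1 gene, −6.42 for *zmpms1*, −6.56 for *fl4*, −6.78 for the zein-alpha A30 gene, −6.93 for the Z1A gene, −5.71 for *zp15*, and −1.59 for *dzs18*. Among regulators and enzymes it was −4.82 for *bzip17*, −1.89 for *gbf1*, −0.87 for *bzip104*, −4.05 for the bZIP9 homolog, −3.86 for *lkrsdh1*, −1.47 for *pdk2*, −1.80 for *pdk1*, −3.02 for *asn2*, −7.86 for *rip1*, and −4.14 for *scl1*. Among the other genes it was −2.02 for *o2*, −2.35 for *nkd1*, −1.0 for *se1*, −10.78 for the subtilisin-chymotrypsin inhibitor CI-1B gene, −2.17 for *sci1*, −3.33 for *psei10*, −3.24 for the thaumatin-like protein 1 gene, −8.95 for the mannose-specific jacalin-related lectin gene, −2.0 for *incw4*, −1.89 for *glct1*, −0.95 for the GH3.6 gene, −1.04 for *myb155*, −5.99 for Zm00001d048810, −4.28 for Zm00001d019162, −12.16 for Zm00001d048089, and −11.64 for Zm00001d047323. Positive differences were 2.85 for *nkd2*, 0.65 for the mitochondrial HSP70-9 gene, 6.41 for *hsftf17*, 0.57 for *gap1*, 2.82 for *mads26*, 3.52 for the PLP3B gene, 1.86 for *ago2a*, 2.15 for the DnaJ protein gene, 23.46 for Zm00001d038019, and 19.13 for Zm00001d039231. Zm00001d038019, Zm00001d039231, Zm00001d047323, and Zm00001d048089 had 0 reads in all libraries of a group. For these genes the fitted difference depends on the prior count and is no measure of size. The value of *nkd2* sets its fall in *o2* against WT beside levels of 0.194 and 0.340 CPM in *nkd1 nkd2* and *nkd1 nkd2 o2*, which carry *nkd2-null*.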

How the results depend on the processing

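The 2228 DEGs of *nkd1 nkd2 o2* against *nkd1 nkd2* became 2345 with DESeq2, 2244 with DESeq2 size factors, 2261 with no filter on low counts, 2219 in a fit of only both groups, and 1971 to 2223 with 1 library left out, and 82.1 to 97.7% of the 2228 were called again. With adjusted P under 0.05 and no limit on log2FC, 7059 genes passed. The 5464 genes whose *o2* effect differed between backgrounds became 5946, 5434, 4813, and 5537 under the same settings, and 4730 to 5441 with 1 library left out. In the check of pairing, libraries with the same replicate number had correlations of 0.07, −0.06, −0.01, and 0.12 between their deviations from the group means, so the numbers do not pair them, and the replicate block gave 2181 DEGs and 5242 differences.

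The count of lower starch genes, 2, was 1 with no filter on low counts and 0 to 2 with 1 library left out. The count of higher M1 genes, 2, was 4 with DESeq2 and 2 to 4 with 1 library left out, 4 without *nkd1 nkd2 o2* replicate 4. DESeq2 gave no adjusted P for 9 of the 17 zein genes and called the other 8. The count of lower anthocyanin genes, 2, was 1 without *nkd1 nkd2 o2* replicate 4, and that of aleurone markers, 1 (*c1*), was 0. The differences of the read shares between the groups were −12.7 to −10.6 percentage points for zein, −6.57 to −5.29 for 22-kDa zein, and −8.08 to −6.40 for the top 10 genes with 1 library left out. Among single genes named, 67 of 1926 values of called results lost their call under an alternative, 1859 kept it, and 4 of 142 values of results not called gained one, with no called result changing its sign. Of those that lost it, *hsftf10*, the diaminopimelate decarboxylase gene, and *mybr24* were low in expression, and *ss5* and *se1* lay at the limit on log2FC, with −0.99 for *ss5* without *nkd1 nkd2* replicate 1 or 3 and −0.92 and −0.97 for *se1* without the same libraries, and −0.87 for *se1* without *nkd1 nkd2 o2* replicate 3. The log2FC of *nkd2* passed only without *nkd1 nkd2* replicate 3 (1.32), that of *mcm6* only without *nkd1 nkd2 o2* replicate 2 (1.02), and that of *bhlh96* was lost without *nkd1 nkd2 o2* replicate 1 (−0.94). The rise of the DNA replication licensing factor gene was lost without any 1 of 6 libraries, *nkd1 nkd2* replicates 1, 3, and 4 and *nkd1 nkd2 o2* replicates 1 to 3 (adjusted P = 0.0601 to 0.0895, edgeR). Without *nkd1 nkd2 o2* replicate 4 the difference between backgrounds was −1.82 for *o2* (adjusted P = 0.0733, edgeR) and was not called for *ago2a* either (adjusted P = 0.0636, edgeR). Replicate 4 of *nkd1 nkd2 o2* set the residual zein level of its group. Promoter motifs and encoded lysine were not run. Depth limits only genes of few reads. The standard errors of log2FC were taken from the quasi-likelihood test and include the spread between libraries.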

Other observations

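The deposited tables also hold entries whose identifiers begin with ENSRNA, which the sources used here do not describe, a group looked at after its values were seen. Of 221 such entries tested at 16 DAP, 35 were lower and 4 higher in *nkd1 nkd2 o2* than in *nkd1 nkd2*, where 5.42% and 3.77% of all genes tested were, with a median log2FC of −0.55, and without *nkd1 nkd2 o2* s4 these counts were 28 and 4 of 232 (5.3% and 3.68% of all genes). At 12 DAP, 9 of 219 were lower and 3 higher (3.76% and 3.72% of all genes), and at 8 DAP 5 of 236 were higher (0.526% of all genes) by edgeR's quasi-likelihood test. In *o2* against WT at 16 DAP, 16 of 221 were lower and 28 higher (7.12% and 5.35% of all genes). The difference between both effects was negative for 32 and positive for 7 (12.8% and 9.76% of all genes).

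Many DEGs were near 0 in one of the genotypes, with a limit of 0.1 CPM on the mean that was chosen after the values were seen. Of the 914 rises, 198 had a mean under this limit in *nkd1 nkd2*, and 26 of these had at least 1 triple mutant library at 0 reads. Of the same 198, 55 were also under the limit in WT and called higher in *o2*. Of the falls, 224 had a mean under the limit in *nkd1 nkd2 o2*, 101 of them also in *o2*, and 100 belonged to M1. The 10 most abundant genes of a library took 21.2 ± 2.31% of the reads on genes in *nkd1 nkd2* and 13.7 ± 1.03% in *nkd1 nkd2 o2* (P = 0.029, two-sided exact permutation test), and 31.2 ± 0.465% and 19.9 ± 1.01% in WT and *o2* (P = 0.029 by the same exact test).

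Anthocyanin genes were lower in 2 of the 3 matched, and in 1 without s4. Both were low in expression, *c1* as given above and *chi3* at 1.40 ± 0.137 and 0.545 ± 0.171 CPM. The third, *fht1*, at 5.31 ± 3.91 and 1.61 ± 1.66 CPM, was not called (log2FC −1.71, adjusted P = 0.124, edgeR). In the auxin list 1 of 4 genes tested was lower, the GH3 gene. Of all genes tested 5.42% were lower. Both lists were matched only within M1 and a part of M3, so neither count is independent of M1.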
